A study of Mus musculus with 8 samples.

Results

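Rab proteins are small GTPases that direct traffic between the membranes of a cell, and 44 of the 11756 genes in the deposited table carry a Rab symbol. They were taken by symbol alone, as the word Rab followed by a number and, where present, a letter, so that genes for Rab effectors and regulators stayed out. RNA was measured in 8 libraries of CD11c positive cells from the bone marrow (femurs and tibias) of C57BL/6 mice, isolated by flow cytometry. CD11c is an integrin of dendritic cells and some macrophages. Cells of 4 libraries were loaded with acLDL, low density lipoprotein that has been acetylated and is cleared through scavenger receptors, for 24 h from culture day 6, and the cells of 4 control libraries were not. The design text presents acLDL as a stand-in for an atherosclerotic setting, so the comparison asks how lipid loading changes these cells. Whether a group's libraries are separate animals or cultures is not labelled, and p-values therefore reflect the spread among these 8 libraries, which may be technical.

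A Rab protein switches between a form bound to GTP, which sits on a membrane and recruits effectors, and a form bound to GDP, which a dissociation inhibitor keeps in the cytosol. Exchange factors turn the switch on and GTPase activating proteins turn it off. Each Rab marks its own compartment: Rab5 and Rab21 early endosomes, Rab4 and Rab11 recycling endosomes, Rab7 and Rab9 late endosomes, Rab1, Rab2 and Rab6 the way through the endoplasmic reticulum and the Golgi, and Rab8, Rab10 and Rab27 carriers bound for the cell surface. In phagocytes, cargo taken up at the surface, lipoproteins included, passes through Rab5 and then Rab7 compartments to reach lysosomes.

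The libraries of a group were not alike, and this bears on every Rab gene below. An index of short transcripts, taken as the mean log2 value of genes with no coding transcript of 1000 nt or more minus that of genes with a longer one, was 1.42, -0.54, -1.37 and 0.36 in acLDL libraries 1 to 4, against 0.63, 1.29, 1.37 and 1.11 in control libraries 1 to 4. By Spearman correlation over the tested genes, acLDL library 1 was nearest to control library 3 (0.95), and acLDL library 4 and control library 1 were nearest to each other (0.89). The marker gene of the sort, Itgax, was listed at 189, 10.004, 0 and 42.7 in acLDL libraries 1 to 4 and at 81.5, 182, 195 and 172 in control libraries 1 to 4, and Csf1r, a macrophage receptor gene, at 4087, 8639, 9634 and 5872 with acLDL and at 5577, 3838, 3929 and 3899 in controls. Thus Itgax was at or near 0 in acLDL libraries 2 and 3, while Csf1r was present in all 8. Markers of other cells also varied between libraries: the summed signal of 8 listed granulocyte markers of 10 was 489 to 10844 with acLDL and 5119 to 12773 in controls, and that of 4 listed erythroid and platelet markers of 10 was 185 to 1633 with acLDL and 992 to 2167 in controls. Of 10 lymphocyte markers only Cd79a and Ms4a1 were listed, both at 0 in some libraries, with sums of 29.4 to 76.8 with acLDL and 16.6 to 31.4 in controls. Summed signal was 20.96 to 80.5 with acLDL and 54.9 to 132 in controls for 4 of 8 mast cell and basophil markers, 358 to 501 with acLDL and 409 to 728 in controls for 3 of 6 plasmacytoid dendritic cell markers, and 17.4 to 111 with acLDL and 12.2 to 24.7 in controls for 1 of 7 stromal markers. The 11 dendritic cell and macrophage markers, all listed, summed to 9582 to 19914 with acLDL and 11051 to 18146 in controls. Itgax, Flt3, Zbtb46, Cd209a, Adgre1 and Cd68 were at 0 in some libraries. In acLDL libraries 2 and 3 most of the sum was Csf1r, which ran opposite to other markers of the list. H2-Aa was at 6232, 49.5, 29.4 and 1683 with acLDL and at 1610, 6119, 6463 and 4430 in controls. Cd74 was at 3596, 110, 240 and 793 with acLDL and at 830, 2463, 2831 and 2425 in controls. Mrc1 was at 1059, 199, 290 and 527 with acLDL and at 720, 750, 929 and 1145 in controls. The part of these cells in the Rab values was not tested, and in bulk RNA fewer cells of a type and less RNA per cell cannot be told apart.

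No Rab gene passed the test, and the family's values split instead by gene, with some members higher and others lower in the same libraries. Of the 41 members that reached 10 in 4 or more libraries and entered the fit, 23 had a higher and 18 a lower mean log2 value with acLDL; 56.1% were higher, against 44.3% of all 10091 tested genes. The median log2 fold change of the tested members was 0.12 and that of all tested genes -0.13, on the scale of log2(value + 5), as acLDL minus control. The smallest limma adjusted p of a member was 0.298, so 0 of 41 members passed the threshold of 0.05, against 0% of all tested genes. At an unadjusted p under 0.05 in limma there were 5 members (12.2%), 2 higher (Rab21 and Rab22a) and 3 lower (Rab19, Rab28 and Rab1b), against 16.4% of all tested genes, of which 7.42% were higher and 8.93% lower. Without any overlap between acLDL and control values were 2 tested members (4.88%), Rab21 (higher) and Rab14 (lower), against 5.64% of all tested genes, 3.44% higher and 2.2% lower. Both shares lie near those of the whole table, and the difference was not tested. The summed signal of the 44 genes was 19720.2, 22264, 26147 and 20741 in acLDL libraries 1 to 4 and 19856, 18914, 19036 and 19334 in control libraries 1 to 4, which is 0.477%, 0.526%, 0.596% and 0.529% of the library total with acLDL and 0.478%, 0.445%, 0.456% and 0.486% in controls. The sum was highest in acLDL library 3, and acLDL libraries 2, 3 and 4 were above every control while acLDL library 1 lay among them.

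**Figure D1:**
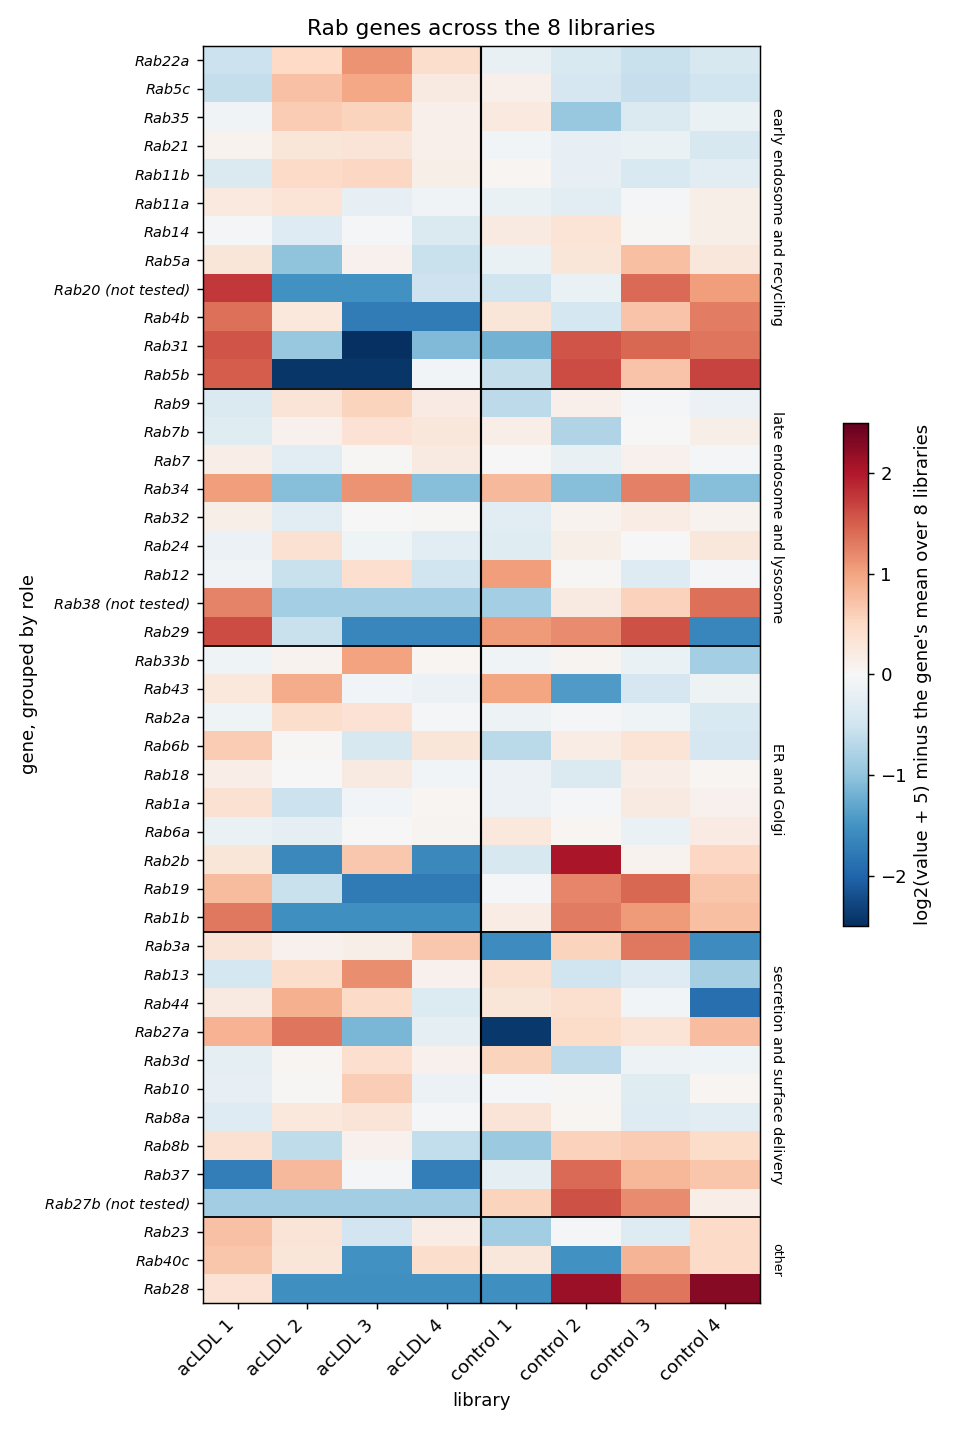
Each row is 1 of 44 Rab genes, grouped by role and ordered within a role by fold change, and each column 1 library, with acLDL left of the line and control right of it. Colour gives log2(value + 5) minus the gene's mean over the 8 libraries, from blue (lower) to red (higher). Genes such as Rab22a and Rab5c are red and genes such as Rab31 and Rab5b blue in acLDL libraries 2 and 3, while acLDL library 1 is red for Rab31 and Rab5b, as control libraries 2 to 4 are.

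Among the early endosome and recycling members, Rab21, Rab22a, Rab35 and Rab5c had higher and Rab14, Rab5a, Rab5b and Rab31 lower means with acLDL. Of 12 listed members 11 were tested, 6 with a higher and 5 with a lower mean (median log2 fold change 0.15). Rab21, which acts on early endosomes and in the traffic of integrins (chromosome 10, 115287084 to 115315594, minus strand), measured 861, 1001, 1011 and 877 in acLDL libraries 1 to 4, against 775, 704, 715 and 608 in control libraries 1 to 4. Every acLDL library lay above every control, and the least high of them, acLDL library 1, exceeded control library 1, the highest control. Its log2 fold change was 0.42 (SE 0.16, limma adjusted p = 0.298), and 0.31 with the short-transcript index as a covariate. Rab14, which works between early endosomes and the Golgi (chromosome 2, 35180205 to 35201120, minus strand), measured 294, 238, 292 and 229.7 with acLDL and 352, 378, 306 and 329.5 in controls. All 4 acLDL libraries were below all 4 controls, by the narrowest step between acLDL library 1 and control library 3. Rab14 had a fold change of -0.37 on the log2 scale (SE 0.18, limma adjusted p = 0.301), and -0.37 with the covariate, so it was the same size in both fits.

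Rab22a, an early endosome relative of Rab5 that sorts cargo back to the surface (chromosome 2, 173659760 to 173707343, plus strand), was the member with the highest fold change. It measured 468, 963, 1486 and 919 in acLDL libraries 1 to 4 and 600.2, 523, 458 and 513 in control libraries 1 to 4. Libraries 2, 3 and 4 of acLDL were above every control, and acLDL library 1 was inside the control range. For Rab22a the log2 fold change was 0.76 (SE 0.32, limma adjusted p = 0.298), and 0.15 with the covariate. Without acLDL library 1 it was 1.06 (limma adjusted p = 0.0246), in a fit that called 7.28% of all tested genes higher. Leaving out any other single library called no gene. Rab35, which returns cargo from endosomes to the plasma membrane (chromosome 5, 115631908 to 115647736, plus strand), measured 650.1, 1070.3, 1020.4 and 752 with acLDL and 813, 356, 533 and 613 in controls. Here acLDL libraries 2 and 3 lay above every control, acLDL libraries 1 and 4 within the control range. Its log2 fold change was 0.62 (SE 0.29, limma adjusted p = 0.298), and 0.25 with the covariate.

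The 3 Rab5 genes, whose products share the task of tethering and fusing early endosomes, differed in direction. Rab5c (chromosome 11, 100715009 to 100738215, minus strand) measured 1507, 3806, 4479.8 and 2674 with acLDL and 2497, 1711, 1529.9 and 1612 in controls. The acLDL libraries 2, 3 and 4 were above every control, acLDL library 1 was below every control, and control library 1 was the highest of its group. Its log2 fold change was 0.68 (SE 0.34, limma adjusted p = 0.305), and 0.005 with the covariate. Without acLDL library 1 it was 0.99 (limma adjusted p = 0.0308), where 7.28% of all tested genes were called higher. Rab5a (chromosome 17, 53479234 to 53507680, plus strand) measured 159, 61.5, 138 and 84.9 with acLDL and 113, 159, 217 and 156 in controls, with acLDL libraries 2 and 4 below every control. Its log2 fold change was -0.58 (SE 0.35, limma adjusted p = 0.346). The 3' end of the annotated Rab5a transcript overlaps Pp2d1 on the opposite strand, and 40.6% of its 31-base words are shared with that gene. Rab5b (chromosome 10, 128677175 to 128696264, minus strand) was at 71.6, 0, 0 and 20.6 with acLDL and 12.9, 78.1, 39.4 and 82.4 in controls. It was listed at 0 in acLDL libraries 2 and 3, and control library 1 was the lowest control. Rab5b came to a log2 fold change of -1.72 (SE 0.96, limma adjusted p = 0.323) and to 0.092 with the covariate.

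Rab31, a Rab22 relative that carries cargo from the Golgi to endosomes (chromosome 17, 65651729 to 65772752, minus strand), measured 89.3, 11.5, 0 and 9.82 with acLDL and 9.03, 89.9, 81.1 and 75.1 in controls. Its libraries made up a high set, made of acLDL library 1 and control libraries 2 to 4, and a low set, made of acLDL libraries 2 to 4 and control library 1. The log2 fold change of -1.58 (SE 0.95, limma adjusted p = 0.345) became 0.16 with the covariate. The recycling gene Rab11a measured 1314, 1399, 961 and 1036 with acLDL and 989, 922, 1086 and 1224 in controls, and its relative Rab11b measured 502, 901, 919 and 716 with acLDL and 668, 558, 494 and 533 in controls. For Rab11a the groups overlapped (log2 fold change 0.15, SE 0.19), and for Rab11b acLDL libraries 2, 3 and 4 were above every control (0.40, SE 0.23, limma adjusted p = 0.338; 0.019 with the covariate). Rab4b, of the fast recycling route, was low and listed at 0 in acLDL libraries 3 and 4, with a log2 fold change of -0.92 (SE 0.79) that became -0.07 with the covariate. At its 3' end 98.7% of the 31-base words also occur in the overlapping annotated gene Gm21983, so the level of Rab4b is uncertain.

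**Figure D2:**
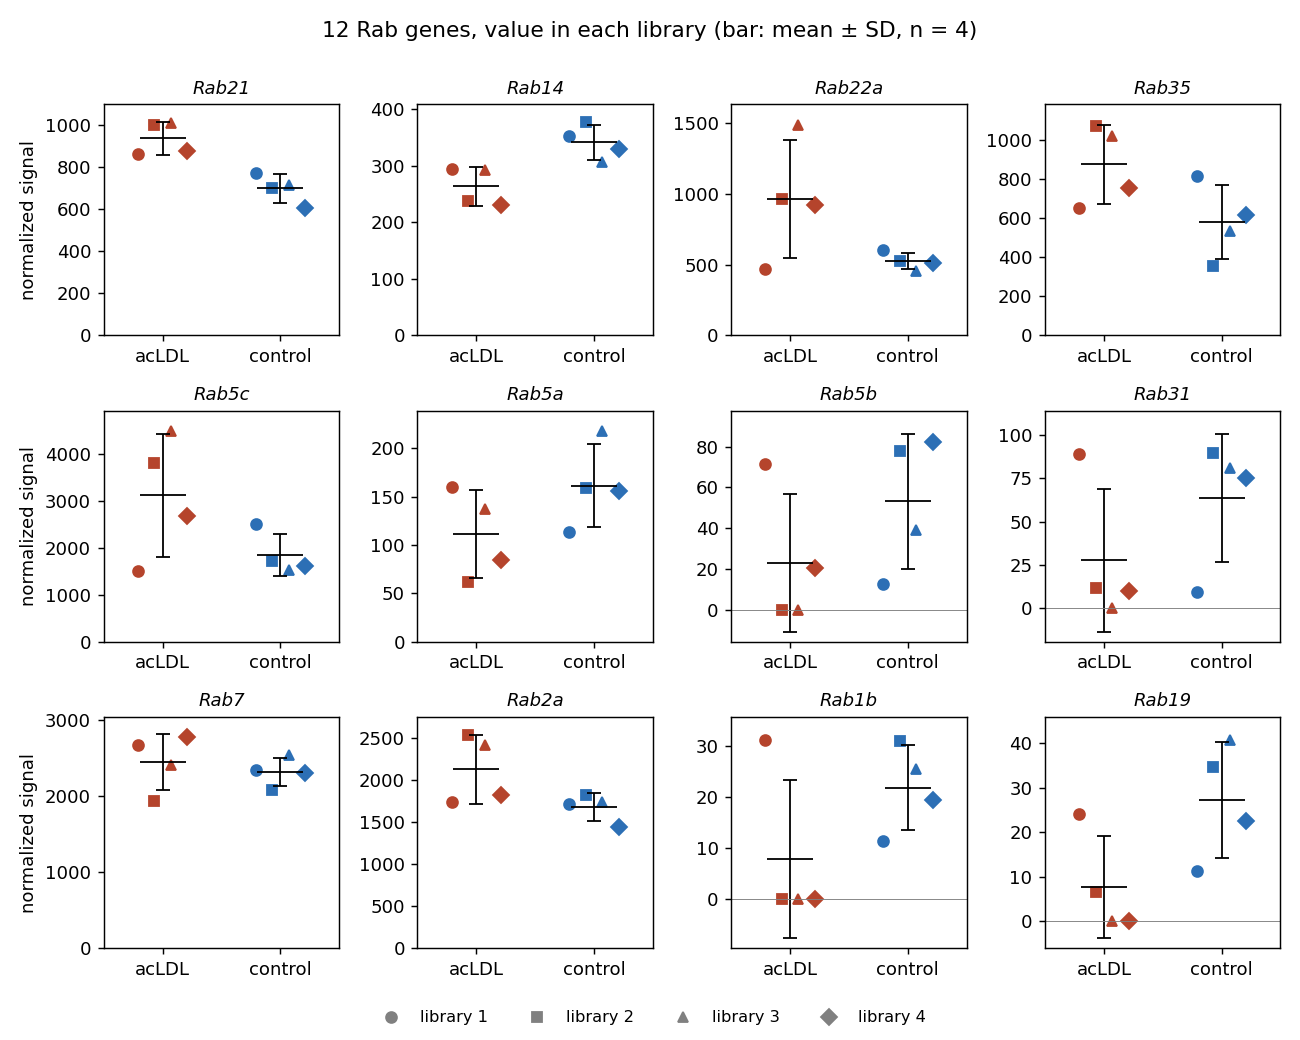
Normalized signal (y axis, linear, from 0 where bars allow) of 12 Rab genes in each library, with acLDL left and control right; marker shapes give the library number and the black bar the mean ± SD (n = 4 each). Rab21 and Rab14 show no overlap between groups, Rab7 lies at 2450.0 ± 373 with acLDL and 2318 ± 190 in controls, and for Rab31 control library 1 (9.03) sits with acLDL libraries 2 to 4.

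The late endosome and lysosome members, which take over cargo from Rab5 compartments, included the abundant Rab7 and Rab32 with fold changes smaller than their standard errors. Of 9 listed members 8 were tested, 4 with a higher and 4 with a lower mean (median log2 fold change -0.01), and none had an unadjusted limma p under 0.05. Rab7, the Rab of late endosomes and of their fusion with lysosomes (chromosome 6, 87999106 to 88045270, minus strand), measured 2672, 1939.6, 2412 and 2777 in acLDL libraries 1 to 4 and 2339, 2079, 2544 and 2309 in control libraries 1 to 4. The control range lay inside the acLDL range, which ran from library 2 to library 4. Its log2 fold change was 0.07 with an SE of 0.17 (limma adjusted p = 0.815). Rab32, which serves lysosome-related organelles and, in macrophages, the delivery of antimicrobial factors to phagosomes, measured 683, 515, 619 and 632 with acLDL and 515, 663, 706 and 657 in controls, with a log2 fold change of -0.05 (SE 0.18). The ranges of both groups began at 515 and overlapped. Rab7b, a relative of Rab7 that acts between late endosomes and the Golgi, measured 198, 266, 319 and 299 with acLDL and 276, 145, 247 and 273 in controls, again with overlap (log2 fold change 0.22, SE 0.27).

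Rab9, which returns mannose 6-phosphate receptors from late endosomes to the Golgi (chromosome X, 166457253 to 166479867, minus strand), had the smallest p of this role. It measured 164, 267, 313 and 244 with acLDL and 133, 233, 208 and 191 in controls. Libraries 2, 3 and 4 of acLDL were above every control and acLDL library 1 was below 3 of the 4. The log2 fold change was 0.35 (SE 0.27, limma adjusted p = 0.436), and 0.10 with the covariate; 16.7% of the 31-base words at the 3' end of Rab9 recur in a pseudogene, Rab9b-ps1. Rab24, linked to autophagy, measured 231 ± 49.7 with acLDL and 242 ± 40.9 in controls (SD, n = 4 each) (log2 fold change -0.069, SE 0.23). Low values marked Rab29, a regulator of lysosomes that works with the kinase LRRK2, at 43.2, 5.49, 0 and 0 with acLDL and 27.4, 30.4, 41.5 and 0 in controls, where libraries of both groups were listed at 0. Rab12, at 25.7, 16.98, 38.1 and 17.8 with acLDL and 62.1, 28.2, 20.8 and 26.6 in controls, had its highest value in control library 1 (log2 fold change -0.37, SE 0.43). Rab34, which positions lysosomes, was listed at 0 in 2 libraries of each group.

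Among the ER and Golgi members, Rab1a and Rab2a differed from their paralogs Rab1b and Rab2b, which had low values and lower means with acLDL. All 10 listed members were tested, 5 with a higher and 5 with a lower mean (median log2 fold change 0.03). Rab1a, which moves cargo out of the endoplasmic reticulum (chromosome 11, 20201432 to 20226856, plus strand), measured 2563, 1353, 1890.4 and 2049.9 with acLDL and 1793, 1939, 2318 and 2119 in controls. The acLDL libraries 1 and 2 bounded the controls on both sides, with a log2 fold change of -0.086 (SE 0.22, limma adjusted p = 0.822). Its paralog Rab1b (chromosome 19, 5099205 to 5107072, minus strand) was at 31.2, 0, 0 and 0 with acLDL and 11.4, 30.97, 25.5 and 19.5 in controls. It was listed at 0 in acLDL libraries 2, 3 and 4, whereas acLDL library 1 had the highest value of all 8. Without a covariate the log2 fold change of Rab1b was -1.65 (SE 0.72, limma adjusted p = 0.298), and it was -0.53 with it. Without acLDL library 1, when every remaining acLDL library was listed at 0, the limma adjusted p of Rab1b was 0.0246, and no fold is given. In that fit 14.4% of all tested genes were called lower.

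Rab2a, of the route between the endoplasmic reticulum and the Golgi (chromosome 4, 8535644 to 8607778, plus strand), measured 1733, 2533, 2414 and 1815 with acLDL and 1707, 1817, 1738 and 1437 in controls. Libraries 2 and 3 of acLDL were above every control, and acLDL libraries 1 and 4 lay within the control range. Its log2 fold change was 0.33 (SE 0.19, limma adjusted p = 0.333), and 0.12 with the covariate. Rab2b was scarce, at 13.7, 0, 19.5 and 0 with acLDL and 6.55, 57.5, 11.3 and 16.7 in controls, and was listed at 0 in acLDL libraries 2 and 4 (log2 fold change -1.12, SE 0.76, limma adjusted p = 0.387). All 31-base words at its 3' end also occur in the annotated gene Gm43766, which overlaps it on the opposite strand, so the level of Rab2b is uncertain. Rab19, a Golgi Rab (chromosome 6, 39381175 to 39390380, plus strand), was at 24.2, 6.55, 0 and 0 with acLDL and 11.3, 34.6, 40.7 and 22.6 in controls. Libraries 2, 3 and 4 of acLDL were below every control, and acLDL library 1 was above control libraries 1 and 4. For Rab19 the log2 fold change was -1.65 (SE 0.67, limma adjusted p = 0.298), and -0.74 with the covariate. Without acLDL library 1 it was -2.19 (limma adjusted p = 0.0348), where 14.4% of all tested genes were called lower. In that fit Rab19 reached 10 only in the controls. Rab6a, which runs transport at the Golgi in both directions, measured 1709.9 ± 168 with acLDL and 1931 ± 246 in controls (SD, n = 4 each) (log2 fold change -0.17, SE 0.17). Rab18, of the endoplasmic reticulum and lipid droplets, measured 87.6 ± 8.81 with acLDL and 78.7 ± 13.02 in controls (SD, n = 4 each) (0.15, SE 0.24). For Rab43 and Rab33b, 49.1% and 61.4% of the 31-base words at the 3' end recur in other genes, so their levels are uncertain too. Rab6b, Rab33b and Rab43 had log2 fold changes of 0.28, 0.52 and 0.49.

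Members of secretion and delivery to the surface mostly had higher means, with log2 fold changes of up to 0.63, and none passed the test. Of 10 listed members 9 were tested, 7 with a higher and 2 with a lower mean (median log2 fold change 0.17, and -0.08 with the covariate). With the covariate 3 of the 9 were higher, against 50.6% of all tested genes. Rab10, which in macrophages brings receptors to the plasma membrane (chromosome 12, 3247428 to 3309969, minus strand), measured 2207, 2604, 3899 and 2295 with acLDL and 2457, 2619.7, 2082 and 2628 in controls. Only acLDL library 3 lay above the controls (log2 fold change 0.14, SE 0.21, limma adjusted p = 0.711). Rab8a measured 170.3 ± 33.9 with acLDL and 156 ± 35.6 in controls (SD, n = 4 each) (log2 fold change 0.12, SE 0.25). Rab8b, its paralog in the delivery of vesicles to the surface (chromosome 9, 66843664 to 66919687, minus strand), measured 705, 344, 579 and 351 with acLDL and 282, 802, 843 and 742 in controls. Here control library 1 was the lowest of all 8, and the other 3 controls were above every acLDL library (log2 fold change -0.38, SE 0.40, limma adjusted p = 0.572). Rab13, which acts in traffic to cell junctions and in migration, measured 203, 379.7, 628 and 299.98 with acLDL and 367, 197, 223 and 154 in controls. This gave Rab13 a log2 fold change of 0.63 (SE 0.38, limma adjusted p = 0.351), and -0.044 with the covariate.

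Rab27a, the Rab of lysosome-related granules and exosome release (chromosome 9, 73044854 to 73097629, plus strand), measured 43.7, 62.3, 7.07 and 17.7 with acLDL and 0, 31.7, 28.8 and 40.4 in controls. Both groups had a high and a low end, and control library 1 was listed at 0 (log2 fold change 0.42, SE 0.82, limma adjusted p = 0.770). Its paralog Rab27b was listed at 0 in all 4 acLDL libraries and at 8.38, 22.7, 15.7 and 5.25 in controls. These values were under the filter, so Rab27b was not in the fit, and no fold is given against a group listed at 0; with no filter limma gave it an adjusted p = 0.323. Rab37, linked to granules of mast cells and to secretion (chromosome 11, 115091431 to 115162236, plus strand), was at 0, 24.3, 11.3 and 0 with acLDL and 9.02, 39.1, 24.5 and 21.8 in controls. It was listed at 0 in acLDL libraries 1 and 4, while acLDL libraries 2 and 3 were inside the control range. The log2 fold change of Rab37 was -1.34 (SE 0.69, limma adjusted p = 0.307), and -2.06 with the covariate (limma adjusted p = 0.943). It was the only member with an unadjusted p under 0.05 in that fit, where 4.97% of all tested genes had one. Rab3a, Rab3d and Rab44 had log2 fold changes of 0.63 (SE 0.72), 0.17 (SE 0.31) and 0.62 (SE 0.56), each with overlap. Rab3a was listed at 0 in 2 controls, and its mean values were 13.7 with acLDL and 12.3 in controls.

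The remaining members were Rab23 and Rab28, known for roles around the primary cilium, and Rab40c, which belongs to a ubiquitin ligase. Rab28 (chromosome 5, 41624976 to 41708157, minus strand) was at 13.5, 0, 0 and 0 with acLDL and 0, 58.1, 31.3 and 65.1 in controls. It was listed at 0 in acLDL libraries 2 to 4 and in control library 1. The log2 fold change of Rab28 was -2.11 (SE 0.90, limma adjusted p = 0.298), and -1.07 with the covariate. Rab23 measured 16.8 ± 7.09 with acLDL and 12.03 ± 6.48 in controls (SD, n = 4 each) and Rab40c 11.4 ± 7.92 with acLDL and 12.04 ± 8.77 in controls (SD, n = 4 each), both with overlap. Rab20, which acts on phagosomes and early endosomes, was at 43.5, 0, 0 and 5.02 with acLDL and 5.16, 7.82, 33.4 and 24.4 in controls, and Rab38, a partner of Rab32 on lysosome-related organelles, at 16.3, 0, 0 and 0 with acLDL and 0, 5.58, 8.46 and 18.6 in controls. Rab20 and Rab38, like Rab27b, did not pass the filter. Zeros among the 44 members numbered 2, 8, 11 and 10 in acLDL libraries 1 to 4 and 4, 2, 0 and 3 in control libraries 1 to 4. As shares of the members these were 4.5%, 18.2%, 25% and 22.7% with acLDL and 9.1%, 4.5%, 0% and 6.8% in controls. Over all listed genes, 7%, 18.5%, 21.9% and 11.1% of values were at 0 in acLDL libraries 1 to 4, against 12%, 11.4%, 5.6% and 9.1% in control libraries 1 to 4.

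Abundant and scarce members differed in the size of their fold changes. Of 20 members with a mean of at least 100, 13 were higher and 7 lower. Their log2 fold changes lay between -0.58 (Rab5a) and 0.76 (Rab22a), with a median of 0.14. Over the 4187 tested genes at that level, 53% were higher and the median was 0.06. Of 21 members with a mean under 100, 10 were higher and 11 lower, between -2.11 (Rab28) and 0.63 (Rab3a), with a median of -0.04. Over the 5904 tested genes at this lower level, 38.2% were higher and the median was -0.27. Rab28, Rab5b, Rab1b, Rab19, Rab31, Rab37, Rab2b, Rab29 and Rab4b had the most negative fold changes, and each was listed at 0 in at least 1 acLDL library.

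The fold changes of many members differed between the fits with and without the short-transcript index. With it as a covariate, 22 of 41 members were higher, against 50.6% of all tested genes, and the median log2 fold change was 0.019 for the members and 0.0069 for all tested genes. Rab5c, Rab11b and Rab13 came to 0.005, 0.019 and -0.044, and Rab5b and Rab31 to 0.092 and 0.16. Rab14, Rab18 and Rab21 stayed close to their first values, at -0.37, 0.15 and 0.31. Every control had a higher index than acLDL libraries 2, 3 and 4, so in part the covariate and the group cannot be told apart. Within the controls, control library 1 had the lowest index. It had 2497 against 1711, 1529.9 and 1612 in control libraries 2 to 4 for Rab5c, 282 against 802, 843 and 742 for Rab8b, 9.03 against 89.9, 81.1 and 75.1 for Rab31 and 12.9 against 78.1, 39.4 and 82.4 for Rab5b. The part of the index in these differences was not tested.

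**Figure D3:**
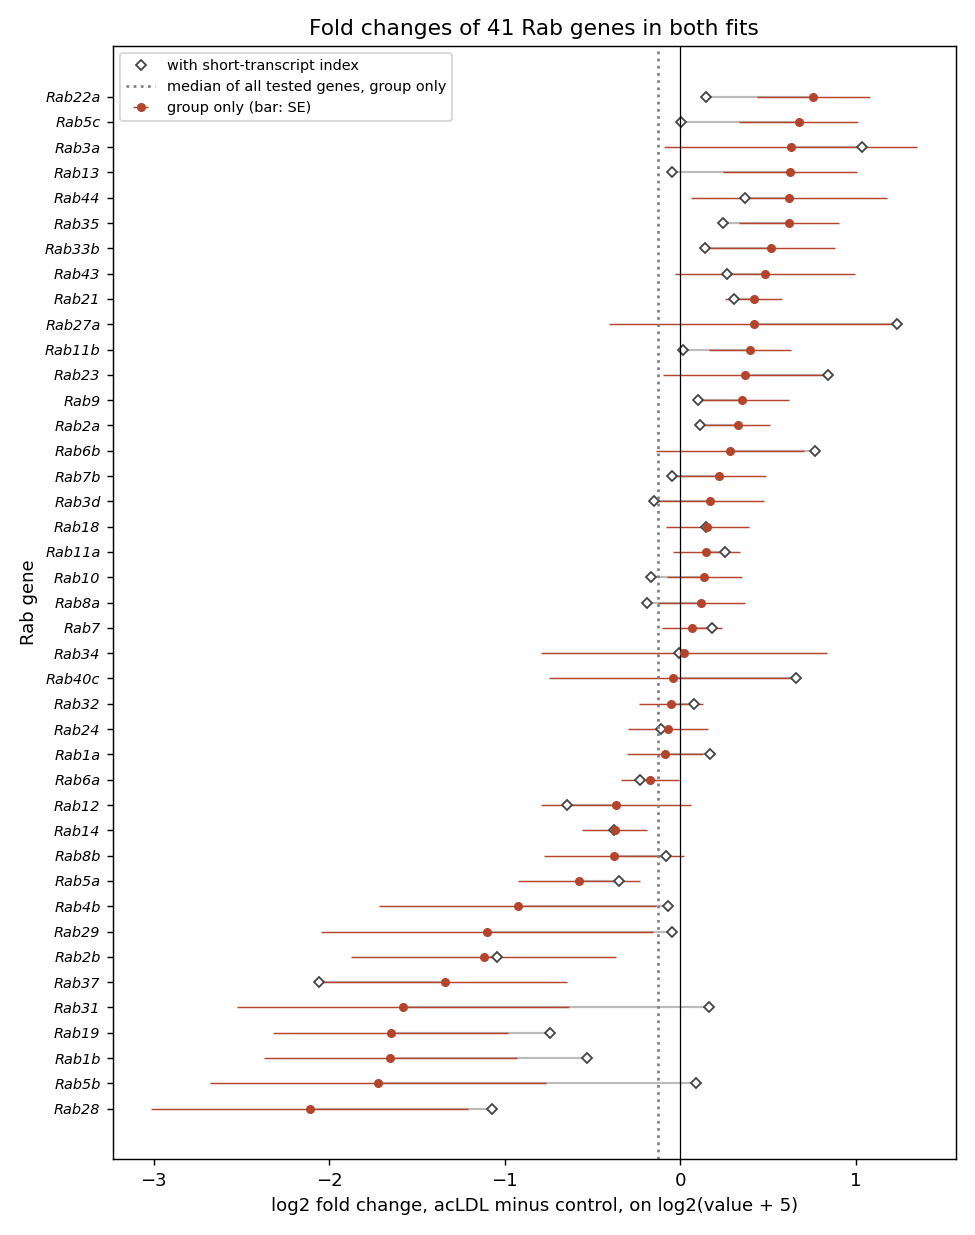
Log2 fold change (x axis, acLDL minus control, on log2(value + 5)) of 41 tested Rab genes, with filled points and SE bars for the fit with the group alone and open diamonds for the fit with the short-transcript index. Grey lines join both values of a gene, and the dotted line is the median of all tested genes (-0.13). Rab22a and Rab5c move toward 0, Rab5b and Rab31 cross it, and Rab14 and Rab18 hardly move.

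Calls depended on acLDL library 1. It lay within the range of the controls for 27 of 41 members, and acLDL libraries 2, 3 and 4 for 17, 22 and 26; over all tested genes the shares were 68.2%, 38.1%, 34.6% and 50.2%. Without acLDL library 1, limma called 4 of 41 members (9.8%) at an adjusted p under 0.05, against 21.7% of all tested genes. They were Rab22a and Rab5c, higher, where 7.28% of all tested genes were called higher, and Rab1b and Rab19, lower, where 14.4% were called lower. The filter had used all 8 libraries. In acLDL libraries 2 to 4, Rab1b was listed at 0 throughout and Rab19 was at 6.55, 0 and 0. Both were thus kept in that fit only through the controls, where they were high, so their lower calls give no separate support. Without acLDL library 1, Rab21 had an adjusted p of 0.0747 and Rab14 of 0.130 in limma. With limma's array weights, lowest for acLDL library 1, 7 members were called, against 19.4% of all tested genes: Rab22a and Rab5c higher (6.49% of all genes) and Rab19, Rab1b, Rab28, Rab31 and Rab5a lower (12.9%). Without acLDL libraries 2 and 3, limma called no member and 0% of all genes, and 1 member (Rab37) had an unadjusted p under 0.05, against 3.02% of all genes.

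Members with long transcripts mostly had higher means. Of 11 members whose longest coding transcript has 4000 nt or more, 10 were higher and 1, Rab8b, was lower, with a median log2 fold change of 0.37, against 0.02 for 3198 tested genes of that length. Of 19 members from 2000 to under 4000 nt, 8 were higher and 11 lower (median -0.05, against -0.11 for 3586 genes). Of 11 members under 2000 nt, 5 were higher and 6 lower (median -0.07, against -0.87 for 2204 genes). The Spearman correlation across genes of fold change with length was 0.29 over the 41 members and 0.28 over 8988 genes. Genes are not independent replicates, and all fold changes come from the same 8 libraries.

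**Figure D4:**
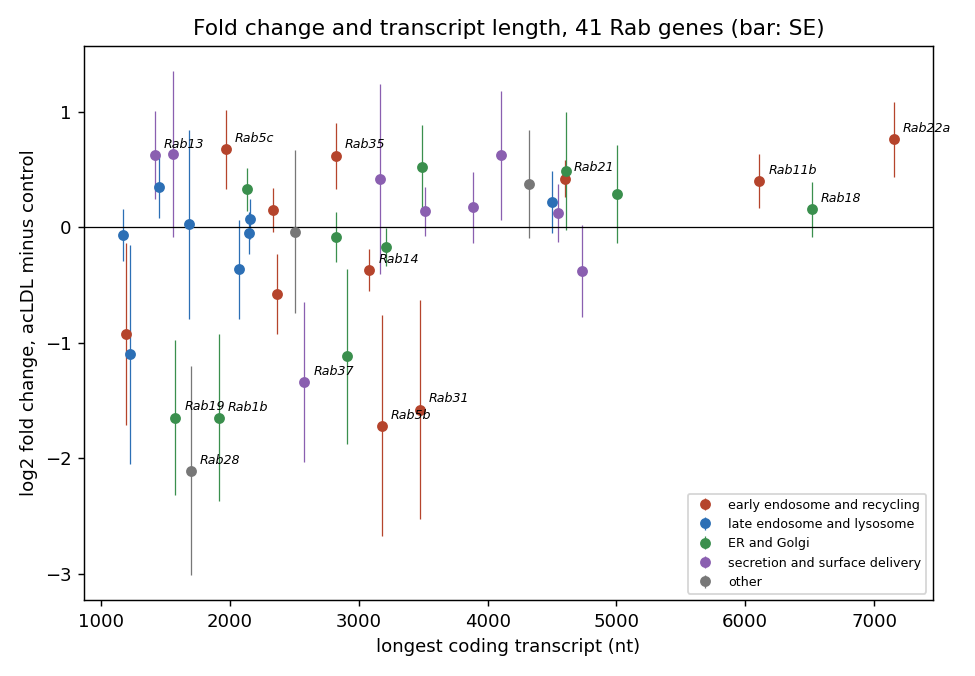
Log2 fold change (y axis, acLDL minus control, points with SE bars) against the longest coding transcript in GENCODE (x axis, nt) for 41 Rab genes, coloured by role. Beyond 4000 nt 10 of 11 points lie above 0, and the lowest points, such as Rab28, Rab5b and Rab31, lie between 1000 and 4000 nt.

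Genes that run the Rab cycle had members in both directions and none past the threshold. Of 143 partner genes chosen, 114 were in the deposited table and 100 were tested. Of these, 57 had a higher and 43 a lower mean, and 0 passed limma's adjusted threshold. Their median log2 fold change was 0.10, and -0.04 with the covariate. At an unadjusted limma p under 0.05 there were 5 higher and 7 lower, against 7.42% and 8.93% of all tested genes. Groups did not overlap for 3 of the 100, Ric1, Tbc1d15 and Gorasp2, all higher. Over all tested genes 3.44% were higher without overlap and 2.2% lower. Among 6 tested genes for GDP dissociation inhibitors and prenylation, 4 were higher and 2 lower. Gdi2, which extracts Rab proteins from membranes, measured 2109, 2763, 2886 and 2393 with acLDL and 2178, 1635, 1867 and 1646 in controls. All but acLDL library 1 lay above every control (log2 fold change 0.47, SE 0.18, limma adjusted p = 0.298). Rabac1, a receptor for prenylated Rab proteins, measured 383, 11.998, 15.5 and 58.1 with acLDL and 263, 534, 245 and 391 in controls. It was far lower in acLDL libraries 2, 3 and 4 than in any other library, with a log2 fold change of -2.68 (SE 0.90, limma adjusted p = 0.298) that became -0.95 with the covariate. Rabggtb, a subunit of the enzyme that prenylates Rab proteins, was at -0.98 on the log2 scale of fold change, or 0.31 once the covariate was added.

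Of 28 tested exchange factor genes, 17 were higher and 11 lower (median 0.08). Ric1, which forms the exchange factor for Rab6 together with Rgp1, measured 537, 546, 559 and 549 with acLDL and 422, 384, 412 and 449 in controls. The 4 acLDL values lay close together and all above the controls, with a log2 fold change of 0.39 (SE 0.15, limma adjusted p = 0.298), and 0.37 with the covariate. Hps4, part of the exchange factor for Rab32 and Rab38, measured 27.5, 20.8, 17.9 and 8.07 with acLDL and 63.3, 36.4, 20.997 and 64.6 in controls, with overlap (log2 fold change -1.09, SE 0.46). Trappc10 was listed at 0 in acLDL libraries 2 and 3 (log2 fold change -1.23), and Dennd1b, an exchange factor for Rab35, measured 1518 ± 713 with acLDL and 1075 ± 186 in controls (SD, n = 4 each). Of 24 tested GTPase activating protein genes, 13 were higher and 11 lower (median 0.06). Rabgap1 measured 70.95, 71.6, 34.4 and 51.9 with acLDL and 38.9, 409, 178 and 186 in controls. Control library 1 was the only control inside the acLDL range (log2 fold change -1.40, SE 0.62, limma adjusted p = 0.298). Tbc1d17, Sgsm3 and Tbc1d8 had log2 fold changes of 0.56, 1.28 and -0.24, and of 0.29, 0.19 and 0.24 with the covariate. Tbc1d15, which acts on Rab7 and was named after its values were seen because its groups did not overlap, measured 210.04 ± 29.5 with acLDL and 160.3 ± 10.9 in controls (SD, n = 4 each) (log2 fold change 0.37, SE 0.20).

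Of 26 tested genes for effectors of endosomal Rabs, 14 were higher and 12 lower (median 0.14). Rab11fip5, an effector of Rab11, measured 196, 55.01, 44.6 and 97.6 with acLDL and 161, 319.6, 235 and 277 in controls. Libraries 2, 3 and 4 of acLDL were below every control, with a log2 fold change of -1.47 (SE 0.45, limma adjusted p = 0.298), and -0.61 with the covariate. Rilpl2 binds Rab8 and Rab10 once they are phosphorylated, and was counted in this list although both were classed here under secretion. It had a log2 fold change of -1.05 (SE 0.39), and -0.34 with the covariate. Rab11fip2 was listed at 0 in 3 controls and measured 12.01, 9.68, 65.6 and 28.3 with acLDL (1.90, SE 0.73). Plin3, a lipid droplet coat protein that also binds Rab9, measured 2059 ± 739 with acLDL and 1258 ± 281 in controls (SD, n = 4 each) (0.66, SE 0.30, and 0.12 with the covariate). For Plin3 acLDL library 1, at 1164, lay inside the control range. Of 16 tested genes for effectors of secretory Rabs, 9 were higher and 7 lower (median 0.15). Gorasp2, a Golgi stacking protein that binds Rab2, measured 945, 1141, 1072 and 966 with acLDL and 895, 588, 728 and 681 in controls. Every acLDL library was above every control, with a log2 fold change of 0.52 (SE 0.18, limma adjusted p = 0.298), and 0.38 with the covariate. Gcc1, a golgin, measured 137 ± 60.5 with acLDL and 55.99 ± 18.6 in controls (SD, n = 4 each) (1.16, SE 0.40, and 0.55 with the covariate). Micall2, an effector of Rab13, was listed at 0 in acLDL libraries 2 to 4 (-1.37, SE 0.58, and -0.63 with the covariate).

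**Figure D5:**
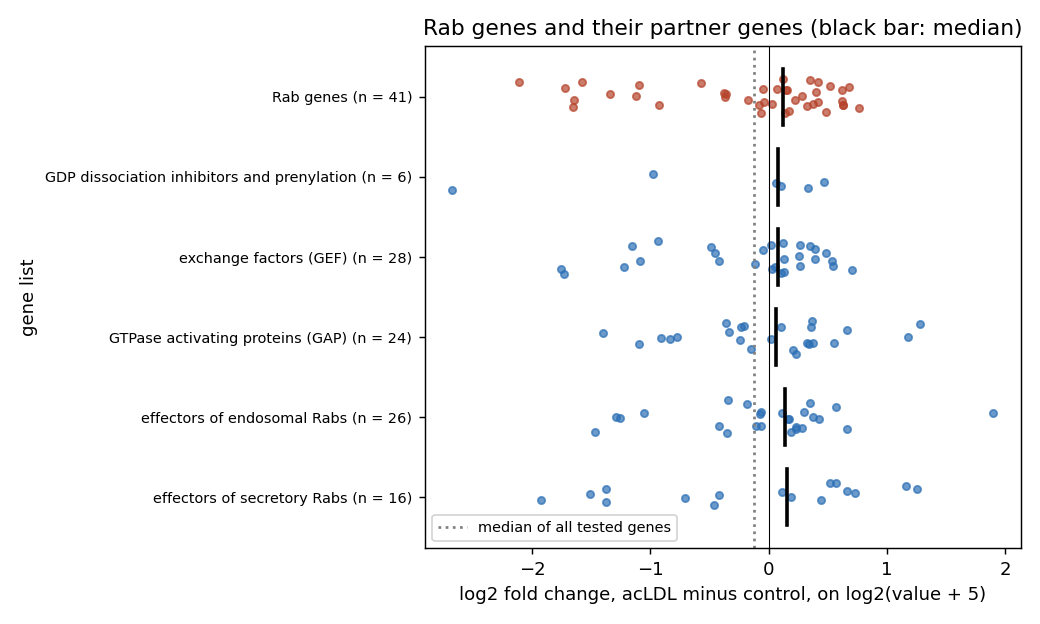
Log2 fold changes (x axis, acLDL minus control) of 41 Rab genes in red and of 5 lists of partner genes in blue, 1 point per tested gene, with a black bar at each median and a dotted line at the median of all tested genes (-0.13). The 6 medians lie between 0.06 and 0.15, and points spread to both sides of 0 in every list.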

How the data were processed

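RNA of 8 libraries, 4 with acLDL and 4 controls, was analysed from 1 deposited table. Per the labels' protocols, RNA was isolated on RNeasy columns and libraries were prepared with a Lexogen QuantSeq V2 kit, a chemistry that samples the 3' end of each message, although the design text speaks of the 5' end. Per the submitters' processing notes, reads were handled by bcl2fastq 2.20 and kallisto on mm10 (GRCm38). The sources used here give neither the normalization nor the annotation. The authors deposited 1 normalized signal per gene symbol and library. Values are not whole, totals run from 3917426 to 4385051, and no value lies between 0 and 5, so a value listed at 0 may stand for a low estimate. Only 11.1% to 13.7% of low values (under 50) came within 0.01 of a whole multiple of the library's step, where chance gives 2%, so reads were not recovered and no counting interval was computed. The depth in reads is therefore unknown.

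The 10091 genes that reached 10 in 4 or more libraries were tested with limma 3.58.1 in R 4.3.3 on log2(value + 5), with a variance trend, robust moderation and the group as the only term. A gene that is low in both groups, or high in fewer than 4 libraries, leaves the fit this way. P-values are two-sided and were adjusted by Benjamini and Hochberg over all tested genes, with a threshold of 0.05. The added 5 pulls fold changes of low genes toward 0. A low estimate listed at 0 can move them either way, so fold changes of genes listed at 0 are not lower bounds. The fit was also run on simulated data with independent noise for each gene and library. Such data lack the differences between libraries that many genes share here, so that run says nothing about the dependence on single libraries. The members, role classes, partner lists and markers were chosen with earlier results of these data known, and the lists received no test of their own. Named genes are, per role, the 4 tested members with the smallest p and the one with the highest mean, 14 further members, and per partner list the 3 genes with the smallest p and the one with the highest mean; other members are given for completeness. Symbols of 96.6% of genes matched GENCODE mouse release 21 (GRCm38), which gave coordinates and transcript lengths. The last 500 bases of each member's coding transcripts were searched for 31-base words that other genes share, on both strands, because kallisto divides reads between similar transcripts. Same-numbered libraries did not deviate together. Alternatives were 2 pseudocounts (1 and 20), 2 other filters, median-of-ratios factors, quantile normalization, a replicate block, array weights, the short-transcript covariate, leaving out each library, and leaving out acLDL libraries 2 and 3. Python 3.11.15 was used for summaries.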

Additional observations from a re-analysis of the deposited data

Results flagged for a closer look

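A library far from the other 3 of its group was found in 8 of 87 groups of 4 values of the Rab genes, on log2(value + 5). The cutoff gives about 1 in 20 by chance only for independent values without ties. Here values listed at 0 are tied and all genes share the same 8 libraries, so the number found cannot be set against that rate. The lone library was acLDL library 1 for Rab1b (31.2), Rab28 (13.5) and Rab38 (16.3), where the other 3 acLDL libraries were listed at 0. Control library 1 stood apart for Rab31, at 9.03 against 75.1 to 89.9 in the other controls, and for Rab8b, at 282 against 742 to 843. It was listed at 0 for Rab27a, against 28.8 to 40.4. Control library 4 was listed at 0 for Rab29, against 27.4 to 41.5. In acLDL library 3, Rab33b was at 98.6, against 42.7 to 49.3 in the other acLDL libraries; 61.4% of the 31-base words at its 3' end recur in other genes.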

How the results depend on the processing

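No gene and no Rab gene was called in the fit as reported. Quantile normalization called 1 gene and no Rab gene. Array weights, which gave acLDL library 1 the lowest weight (0.34), called 1957 genes, 19.4% of those tested, and 7 Rab genes: Rab22a and Rab5c higher and Rab19, Rab1b, Rab28, Rab31 and Rab5a lower. With 1 library omitted at a time, between 0 and 2190 genes and between 0 and 4 Rab genes were called, and only the omission of acLDL library 1 gave any. The labels share replicate numbers, but the deviations of same-numbered libraries correlated at -0.55, -0.21, -0.28 and 0.03, so the numbers were not taken as pairs. With a replicate block no gene and 0 Rab genes were called, and 730 genes with 0 Rab genes had an unadjusted p under 0.05, against 1650 genes with 5 Rab genes in the fit without it.

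The median log2 fold change of the Rab genes, 0.12, was 0.047 with no filter on low values, 0.27 after quantile normalization (where that of all genes was 0.15 in place of -0.13), -0.0065 with array weights and 0.019 with the short-transcript covariate, and 0.0067 to 0.16 over the omissions of 1 library. The early endosome median was -0.11 with no filter and 0.41 for genes of at least 10 in all 8 libraries, the ER and Golgi median 0.24 with that filter, and the secretory median 0.43 after quantile normalization and -0.078 with the covariate.

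Several fold changes turned sign, among them large ones such as those of Rab5b (-1.72) and Rab31 (-1.58). With the covariate, Rab7b was at -0.046, Rab1a at 0.17, Rab13 at -0.044, Rab10 at -0.17, Rab40c at 0.66, Rab5b at 0.092, Rab8a at -0.19, Rab31 at 0.16, Rab32 at 0.082, Rabggtb at 0.31, Dennd1b at -0.23 and Tbc1d8 at 0.24. Without acLDL libraries 2 and 3, Rab1a was at 0.17, Rab10 at -0.11, Rab40c at 0.55, Rab8a at -0.11, Rab32 at 0.058, Rabggtb at 0.077 and Tbc1d8 at 0.099. After quantile normalization Rab12 was at 0.092, Rab7 at -0.0097 and Rab40c at 0.46, and with array weights Rab27a was at -0.11. Leaving out single libraries gave Rab1a from -0.23 to 0.081, Rab10 from -0.044 to 0.23, Rab40c from -0.55 to 0.46, Rab27a from -0.32 to 0.87, Rab32 from -0.15 to 0.029 and Tbc1d8 from -0.52 to 0.041. The cause of these changes was not tested. Rab21, Rab14, Rab22a, Rab35 and Rab5c kept their direction under every alternative in which they were tested. So did other named members, among them Rab19, Rab1b, Rab28 and Rab37, so this does not set the 5 apart. For Rab5c the value with the covariate was 0.005 (SE 0.16), so its sign there carries no information. Values listed at 0 limit the precision of several scarce members.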
